A study of Caenorhabditis elegans with 18 samples.

Results

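The ugt genes of Caenorhabditis elegans encode UDP-glucuronosyltransferases, and 66 of the 20191 protein-coding genes counted carry a name that starts with ugt-. They were taken by that name alone, whatever their counts, and 355 of the 106818 intron intervals counted belong to them. Of the 66 genes, 60 had enough reads to be tested and 6 (ugt-10, ugt-15, ugt-18, ugt-27, ugt-35 and ugt-38) did not, with at most 25 reads in any library. All worms were synchronized young adult hermaphrodites taken before embryos had formed, of 1 strain that carries mog-7::degron::gfp and sun-1p::TIR1::mRuby. MOG-7 is a pre-mRNA splicing factor. TIR1, a plant protein that marks degron-tagged proteins for destruction once auxin is present, is driven by the sun-1 promoter, which is active in the germline, so degradation is directed to the germline. The study compared worms after 2 h on auxin, worms after 1 h on auxin, and control worms after 2 h on ethanol, with 6 libraries a group; each of the 6 batches (I, II, V, VII, VIII, X) gave 1 library to every group. All 3 groups carry both transgenes, and auxin-treated worms that lack the degron or TIR1 are not analysed here, so auxin itself and the loss of MOG-7 cannot be told apart. The control of the 1 h exposure was also kept for 2 h.

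UDP-glucuronosyltransferases sit in the membrane of the endoplasmic reticulum and move a sugar from a UDP-sugar to small fat-soluble molecules, which makes these easier to excrete. They belong to the conjugation (phase II) step of detoxification, together with glutathione S-transferases, and act after the oxidation (phase I) step carried out by cytochrome P450 enzymes; ABC transporters then export the products. Nematodes attach mainly glucose, and C. elegans is known to form glucosides of benzimidazole drugs and of indole. Many members are active in the intestine, and the substrates of most single members are not known.

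The libraries held 18153020 to 30747645 reads on genes. The mRNA of mog-7 ranged from 38.5 to 45.6 CPM (read counts scaled to library size by TMM) after 2 h of auxin, from 34.8 to 43.1 CPM after 1 h and from 37.1 to 41.5 CPM with ethanol, which checks no label because the depletion acts on the protein. The 8 early embryo markers all stayed under the filter on low counts, with a summed level of 0.127 to 0.397 CPM after 2 h, 0.132 to 0.532 CPM after 1 h and 0.0882 to 0.673 CPM with ethanol. Batch V gave the highest library of every group for ugt-8, ugt-9, ugt-13, ugt-25, ugt-41 and ugt-63, and batch VII did so for ugt-44. Where leaving out 1 batch ends a call of a ugt gene whose test is given, that batch is named.

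Expression of the family was concentrated in a few genes. Compared per kilobase of gene length, the highest mean level over all 18 libraries was that of ugt-22, at 105 CPM per kilobase, followed by ugt-62 (83.9), ugt-47 (71.3), ugt-63 (65.3), ugt-58 (51.0) and ugt-64 (39.5). These 6 genes held 46.0% of the summed level of all members, and the median member stood at 5.28 CPM per kilobase, against 11.0 for all genes tested. The level of ugt-22 was 105 ± 8.87 CPM per kilobase after 2 h (SD, n = 6), 134 ± 11.3 after 1 h and 76.8 ± 5.92 with ethanol. That of ugt-62 was 90.9 ± 22.9, 88.0 ± 27.5 and 72.8 ± 23.3 CPM per kilobase in the same groups. The neighbours ugt-22 and ugt-62 in this order lay within 1 SD of each other with ethanol and after 2 h, but not after 1 h.

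The summed mRNA of the 66 genes was higher on auxin than on ethanol in each batch. It was 1760 ± 108 CPM after 2 h (SD, n = 6; 1610 to 1890), 1710 ± 105 CPM after 1 h (1590 to 1810) and 1360 ± 88.3 CPM with ethanol (1250 to 1480). Neither auxin group overlapped the ethanol group. Within batches the summed level on auxin was 1.22 to 1.41 times that on ethanol after 2 h and 1.19 to 1.38 times after 1 h. In bulk samples like these, fewer cells of a type and less RNA per cell cannot be told apart.

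After 2 h of auxin, 27 of the 60 tested members rose against ethanol and 1, ugt-28, fell (edgeR, adjusted p under 0.05 over all genes tested). That is 45.0% of them called higher, where 14.5% of all genes tested were higher and 20.1% lower. The median log2 fold change was 0.333 over the members and 0.0738 over all genes. After 1 h, 20 members rose (33.3%) and 0 fell, where 3.62% of all genes tested were higher and 6.93% lower; 1 member was lower at an unadjusted p under 0.05, and DESeq2 also called 0 lower. The median was then 0.216 over the members and 0.000904 over all genes. Both comparisons use the same ethanol libraries, so they are not independent of each other.

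The batch moved the count. With the batch in the model, 45 members were higher and 1 lower at 2 h (30.2% and 26.5% of all genes), and 33 were higher and 1, ugt-44, lower at 1 h (12.5% and 18.2% of all genes). Without batch V, 26 were higher at 2 h and 16 at 1 h. Without batch I, 24 were higher at 2 h and 12 at 1 h. The shares of all genes called in these fits, which hold 1 batch fewer, are not given here. Most rises were under 2-fold, with 2 of the called members over 2-fold at 2 h and 4 at 1 h. Tested against a change of 1.5-fold, without the batch in the model, no member passed. Few genes did at all, with 161 of the 13969 genes tested at 2 h and 48 at 1 h. The lowest adjusted p of that test was 0.0598 for ugt-16 at 2 h and 0.0759 for ugt-22 at 1 h. At an unadjusted p under 0.05 there were 8 and 7 members, and the share of all genes is not given here. Not passing the test does not show that a rise is under 1.5-fold.

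A set of 18 members was called higher at both times, and 9 were called at 2 h only. The 9 were ugt-6, ugt-11, ugt-17, ugt-37, ugt-39, ugt-47, ugt-55, ugt-60 and ugt-61. At 1 h only, ugt-9 and ugt-33 were called. The shares of all genes called at both times or at 1 time only are not given here, so these counts are a description only. A call at 1 time only does not show a difference between the times; of these 11 genes only ugt-47 differed between 2 h and 1 h without the batch in the model. With the batch, ugt-6, ugt-17, ugt-37, ugt-47 and ugt-61 were higher at 2 h than at 1 h and ugt-9 was lower. In 42 members the level was higher than ethanol in 6 of 6 batches at 2 h (23.7% of all genes tested), and in 28 at 1 h (11.3% of all genes). The groups did not overlap, with auxin above ethanol, for 9 members at 2 h (4.2% of all genes) and 8 at 1 h (1.68% of all genes). With the batch in the model, 9 of the 60 members were called in none of the 3 comparisons; they were ugt-4, ugt-30, ugt-34, ugt-36, ugt-52, ugt-53, ugt-56, ugt-57 and ugt-66. The share of all genes called in none is not given here.

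**Figure D1:**
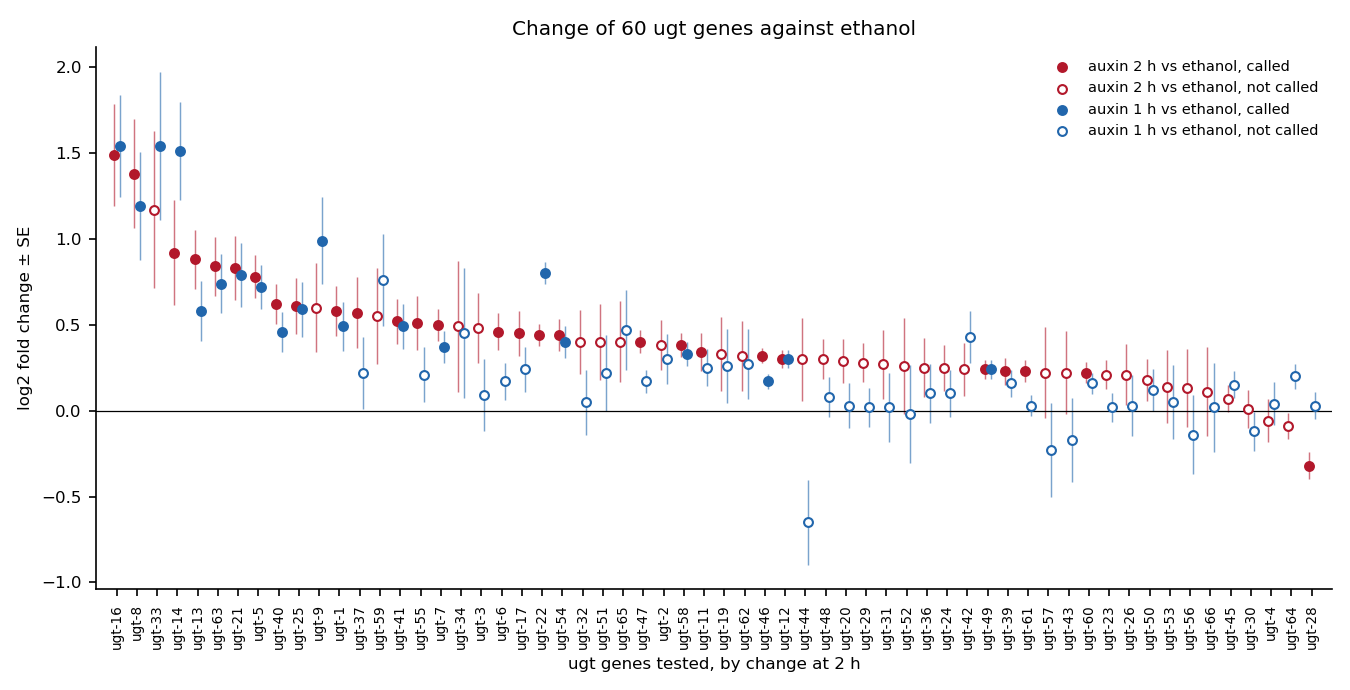
Log2 fold change against ethanol (vertical axis, ± SE) of the 60 ugt genes tested, ordered by the change after 2 h of auxin; red is 2 h, blue is 1 h, filled points passed an adjusted p of 0.05 and open points did not. The red points run from 1.49 for ugt-16 to -0.32 for ugt-28, and ugt-44 lies lowest at 1 h (-0.65, not called).

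The gene with the largest rise at 2 h was ugt-16, on the plus strand of chromosome V (WBcel235, 12825024 to 12827442). Its lowest, median and highest level were 10.4, 15.1 and 32.3 CPM after 2 h, 10.3, 16.8 and 34.8 CPM after 1 h, and 5, 6.15 and 8.36 CPM with ethanol. Every auxin library was above every ethanol library, and those of batch V were highest on auxin at both times. The log2 fold change of ugt-16 was 1.49 (adjusted p = 0.000736, SE 0.297) at 2 h and 1.54 (adjusted p = 0.00151, SE 0.296) at 1 h, and leaving out any 1 batch moved it no lower than 1.30 at either time. The genes on both sides of it, ugt-18 and ugt-15, stayed under the filter.

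The largest group of neighbours holds 7 ugt genes on the plus and minus strands of chromosome V from 4887165 to 4911399, in the order ugt-12, ugt-11, ugt-9, ugt-10, ugt-8, ugt-14 and ugt-13. Of the 6 tested, 5 rose at each time, with all but ugt-9 at 2 h and all but ugt-11 at 1 h. The lowest, median and highest level of ugt-8 were 7.57, 13.6 and 23.8 CPM after 2 h, 6.81, 11.1 and 24.8 CPM after 1 h and 3.17, 5.14 and 8.55 CPM with ethanol. The groups overlapped, but within each of the 6 batches ugt-8 was higher on auxin at both times. Its log2 fold change was 1.38 (adjusted p = 0.00219, SE 0.315) at 2 h and 1.19 (adjusted p = 0.0171, SE 0.314) at 1 h.

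Next to it, ugt-14 was measured at a low level. It had 0.677, 1.10 and 1.86 CPM (lowest, median and highest) after 2 h, 1.21, 1.51 and 3.05 CPM after 1 h and 0.309, 0.639 and 0.852 CPM with ethanol. The 1 h and ethanol groups did not overlap, while the 2 h group overlapped both. For ugt-14 the log2 fold change was 0.92 (adjusted p = 0.0236, SE 0.304) at 2 h and 1.51 (adjusted p = 0.00133, SE 0.286) at 1 h; with the batch in the model it was lower at 2 h than at 1 h (log2 fold change -0.53, adjusted p = 0.00651), which did not pass without it (adjusted p = 0.185).

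The last gene of that group, ugt-13, was the most abundant of these 3. It had 28.4, 42.6 and 57.3 CPM (lowest, median and highest) after 2 h, 26.8, 32.2 and 53.0 CPM after 1 h and 16.7, 22.6 and 30.4 CPM with ethanol. It was higher on auxin in every batch, with overlap between groups, and its log2 fold change was 0.88 (adjusted p = 0.000659, SE 0.173) at 2 h and 0.58 (adjusted p = 0.0333, SE 0.173) at 1 h. For ugt-9 the values were 3.26, 4.31 and 8.43 CPM after 2 h, 4.26, 5.58 and 10.3 CPM after 1 h and 1.90, 2.91 and 4.74 CPM with ethanol. Its log2 fold change was 0.99 (adjusted p = 0.0144, SE 0.253) at 1 h and 0.60 at 2 h, where it passed with the batch in the model (adjusted p = 0.0795 without and 1.67e-05 with it) or without batch V (0.035). Within each batch ugt-9 was lower at 2 h than at 1 h, a difference that also passed only with the batch (adjusted p = 0.00267). Some calls in this group were lost when 1 batch was left out of the fit without the batch in the model. At 1 h this held for ugt-8 without batch I (highest adjusted p = 0.0521), for ugt-9 without batch I or VII (0.0827) and for ugt-13 without batch I, II, VII or X (0.0849). At 2 h it held for ugt-14 without batch I or II (0.0542). With all 6 batches and the batch in the model, the adjusted p at 1 h was 4.69e-10 for ugt-8, 2.57e-08 for ugt-9 and 1.3e-07 for ugt-13. For ugt-14 at 2 h it was 7.47e-05. The libraries of batch V were the highest of each auxin group for ugt-8, ugt-9, ugt-13 and ugt-14; without that batch each of these calls was kept.

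Among the 6 most abundant members, ugt-63 had the largest rise at 2 h. It had 81.1, 122 and 173 CPM (lowest, median and highest) after 2 h, 96.3, 103 and 165 CPM after 1 h and 46.5, 65.5 and 94.9 CPM with ethanol. All 1 h libraries were above all ethanol libraries, and only part of the 2 h range overlapped ethanol. For ugt-63 the log2 fold change was 0.84 (adjusted p = 0.000939, SE 0.172) at 2 h and 0.74 (adjusted p = 0.00749, SE 0.172) at 1 h. Without batch V it was 0.83 (adjusted p = 0.000155) at 2 h and 0.72 (adjusted p = 0.00166) at 1 h. The level of ugt-58 was 98 ± 11.7 CPM after 2 h (SD, n = 6), 94.3 ± 7.41 after 1 h and 75.2 ± 4.75 with ethanol, and both auxin groups lay above ethanol without overlap. Its log2 fold changes were 0.38 (adjusted p = 0.000342, SE 0.0700) and 0.33 (adjusted p = 0.004, SE 0.0699). For ugt-62, which varied more between batches, the level was 156 ± 39.2 CPM after 2 h, 151 ± 47.2 after 1 h and 125 ± 40 with ethanol; it was called only with the batch in the model (adjusted p = 1.14e-07 at 2 h and 6.5e-06 at 1 h).

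Of the moderately expressed members, ugt-5 and ugt-21 changed by a similar size at both times. The lowest, median and highest level of ugt-5 were 8.46, 10.7 and 13.4 CPM after 2 h, 7.08, 11.2 and 11.9 CPM after 1 h and 5.51, 6.05 and 7.58 CPM with ethanol. The 2 h libraries of ugt-5 were all above the ethanol libraries, while the 1 h range overlapped both other groups. Its log2 fold changes were 0.78 (adjusted p = 0.000113, SE 0.127) at 2 h and 0.72 (adjusted p = 0.000654, SE 0.127) at 1 h. For ugt-21 the levels were 8.61, 12.3 and 17.1 CPM after 2 h, 9.16, 11.8 and 16.4 CPM after 1 h and 5.20, 6.12 and 10 CPM with ethanol, which overlapped while every batch was higher on auxin. The log2 fold changes of ugt-21 were 0.83 (adjusted p = 0.00193, SE 0.186) and 0.79 (adjusted p = 0.00796, SE 0.186).

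Smaller rises of the same kind were seen for ugt-1 and ugt-25. The levels of ugt-1 were 7.56, 8.72 and 11.8 CPM (lowest, median and highest) after 2 h, 6.91, 8.48 and 11.1 CPM after 1 h and 4.80, 5.56 and 8.15 CPM with ethanol. Those of ugt-25 were 12.3, 15.4 and 23.8 CPM after 2 h, 11.8, 15 and 23.3 CPM after 1 h and 7.58, 10.7 and 12.9 CPM with ethanol. The groups overlapped for both genes, and each gene was higher on auxin in 6 of 6 batches at both times. The log2 fold changes were 0.58 (adjusted p = 0.00423, SE 0.144) at 2 h and 0.49 (adjusted p = 0.0309, SE 0.143) at 1 h for ugt-1. For ugt-25 they were 0.61 (adjusted p = 0.00637, SE 0.161) and 0.59 (adjusted p = 0.0219, SE 0.16). The 1 h call was lost for ugt-1 without batch I, V, VII or VIII (highest adjusted p = 0.125) and for ugt-25 without batch I, II or X (0.0775). A gene on the other strand overlaps exons of ugt-25.

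A second group of neighbours on chromosome V (7139475 to 7169281) holds ugt-40, ugt-37, ugt-38, ugt-39, ugt-41 and ugt-36, of which 5 were tested; 4 of these rose at 2 h and 2 at 1 h. In this group ugt-41 had the highest counts, with 49.3, 60.6 and 79.8 CPM (lowest, median and highest) after 2 h, 45.1, 58.6 and 79.0 CPM after 1 h and 36.5, 40.3 and 52.8 CPM with ethanol. The ranges of ugt-41 overlapped, and all batches were higher on auxin. Its log2 fold changes were 0.52 (adjusted p = 0.00425, SE 0.13) at 2 h and 0.49 (adjusted p = 0.0172, SE 0.13) at 1 h.

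The annotated exons of ugt-40 and ugt-37 overlap on the same strand, so reads in the overlap could belong to either. The levels of ugt-40 were 5.37, 6.91 and 9 CPM after 2 h, 5.90, 6.07 and 7.55 CPM after 1 h and 3.97, 4.68 and 5.55 CPM with ethanol. The 1 h libraries of ugt-40 were all above the ethanol libraries. The levels of ugt-37 were 1.63, 3.06 and 3.61 CPM after 2 h, 1.73, 2.27 and 2.70 CPM after 1 h and 1.36, 1.67 and 3.17 CPM with ethanol, which overlapped. On the log2 scale ugt-40 changed by 0.62 (adjusted p = 0.000401, SE 0.116) at 2 h and 0.46 (adjusted p = 0.012, SE 0.116) at 1 h, and ugt-37 by 0.57 (adjusted p = 0.0376, SE 0.206) at 2 h and 0.22 (adjusted p = 0.593) at 1 h. Leaving out batch V took ugt-40 past the threshold at 1 h (adjusted p = 0.0521), and leaving out batch I, V, VIII or X did so for ugt-37 at 2 h (up to 0.148). The 1 h call of ugt-41 was lost without batch I or X (up to 0.0884).

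The least abundant member called was ugt-33, with 5 to 19 reads per library after 2 h, 6 to 21 after 1 h and 0 to 9 with ethanol. In CPM its lowest, median and highest level were 0.245, 0.366 and 0.678 after 2 h, 0.290, 0.464 and 0.921 after 1 h and 0, 0.206 and 0.362 with ethanol. The groups overlapped, and every batch was higher on auxin. The log2 fold change was 1.54 (adjusted p = 0.0246, SE 0.433) at 1 h and 1.17 (adjusted p = 0.0525, SE 0.457) at 2 h. The filter asks for 0.447 CPM in at least 6 libraries, which ugt-33 reached in 2 libraries after 2 h, 5 after 1 h and 0 with ethanol, so it was tested only because of the auxin groups; without a filter its adjusted p was 0.0279 at 1 h and 0.0591 at 2 h. The 1 h call of ugt-33 was lost without batch I, V or VII (up to 0.121).

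**Figure D2:**
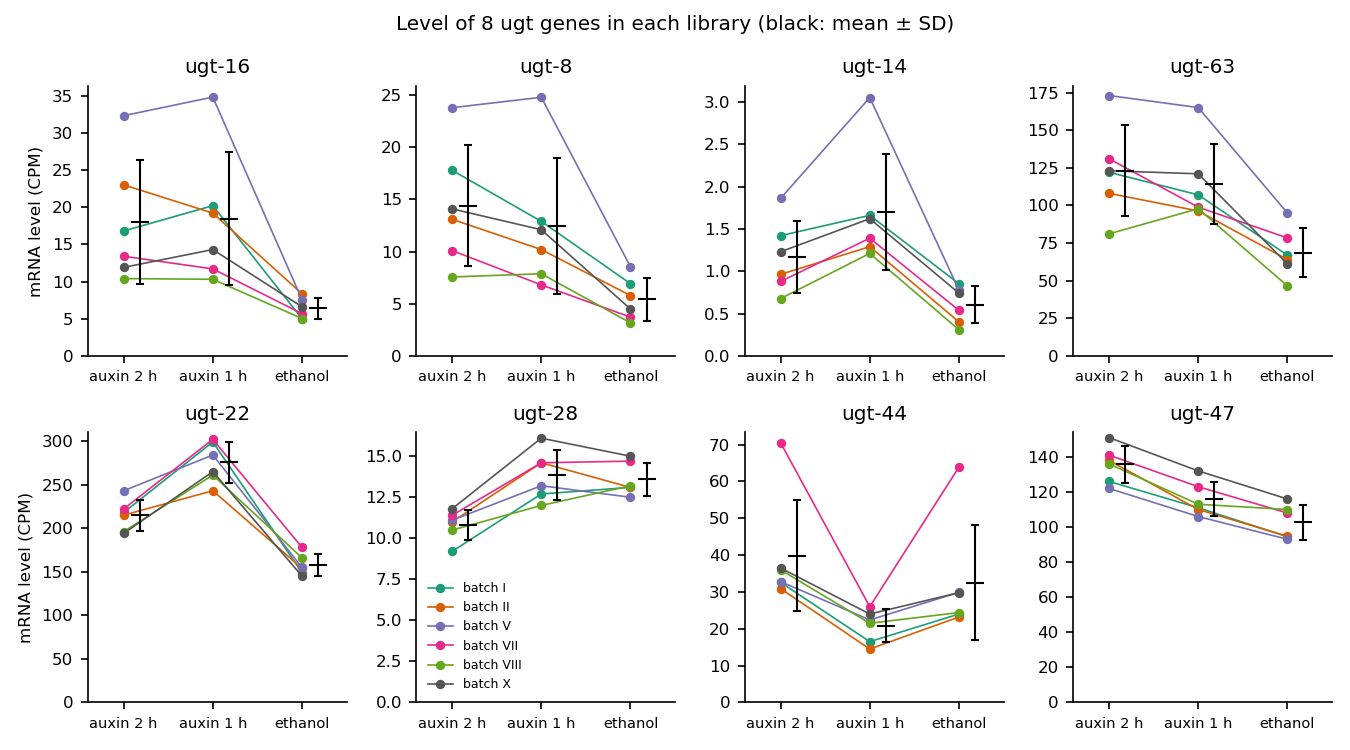
Level in CPM (vertical axis, from 0) of 8 ugt genes in each library, with 1 coloured line per batch and the groups in the order auxin 2 h, auxin 1 h and ethanol; black marks are the mean ± SD of 6 libraries. Batch V is highest on auxin for ugt-16, ugt-8, ugt-14 and ugt-63, ugt-22 peaks at 1 h, ugt-28 is lowest at 2 h, and batch VII of ugt-44 reaches 70.5 CPM at 2 h and 63.9 CPM with ethanol.

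Between 2 h and 1 h of auxin, 2 members were higher at the later time (ugt-44 and ugt-47; 2.94% of all genes tested) and 3 were lower (ugt-22, ugt-28 and ugt-64; 3.95% of all genes). With the batch in the model the counts were 15 and 5 (16.4% and 16.3% of all genes). Without any 1 of batches I, II, V, VII and VIII, only 2 or 3 of the 5 were called. The most abundant member, ugt-22, had 194, 217 and 243 CPM (lowest, median and highest) after 2 h, 243, 274 and 302 CPM after 1 h and 145, 154 and 178 CPM with ethanol. Its auxin libraries were all above the ethanol libraries, and within every batch the 2 h library was below the 1 h library. Against ethanol the log2 fold change of ugt-22 was 0.44 (adjusted p = 3.05e-05, SE 0.0647) at 2 h and 0.80 (adjusted p = 4.42e-08, SE 0.0649) at 1 h, and between the times it was -0.36 (adjusted p = 0.00226, SE 0.0644). Without the batch in the model, ugt-22 was the one member called in opposite directions in different comparisons. With the batch, ugt-9, ugt-14, ugt-44 and ugt-64 were so called too. A gene on the other strand overlaps exons of ugt-22.

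The one member that fell against ethanol was ugt-28, on the plus strand of chromosome I (4727280 to 4730366). It had 9.20, 11.0 and 11.8 CPM (lowest, median and highest) after 2 h, 12, 13.9 and 16.1 CPM after 1 h and 12.5, 13.2 and 15 CPM with ethanol. All 2 h libraries lay below all libraries of both other groups. The log2 fold change was -0.32 (adjusted p = 0.00334, SE 0.0782) against ethanol and -0.35 (adjusted p = 0.00924, SE 0.078) against 1 h, while that of 1 h against ethanol was 0.03 (adjusted p = 0.875). The level of ugt-64 was 61.6 ± 6.24 CPM after 2 h (SD, n = 6), 75.8 ± 8.38 after 1 h and 65.8 ± 4.19 with ethanol. It was lower at 2 h than at 1 h (log2 fold change -0.30, SE 0.0734, adjusted p = 0.0182), a call lost without batch V or VII (up to 0.0657). Only with the batch in the model was ugt-64 also called higher than ethanol at 1 h (0.20, adjusted p = 0.00176, against 0.0803 without the batch).

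The opposite order held for ugt-44, which stands next to ugt-43 on chromosome IV (10469741 to 10471899). It had 30.9, 34.4 and 70.5 CPM (lowest, median and highest) after 2 h, 14.5, 21.9 and 26.0 CPM after 1 h and 23.2, 27.1 and 63.9 CPM with ethanol. All 2 h libraries were above all 1 h libraries, and in every batch the 1 h library was below the ethanol library. Between 2 h and 1 h the log2 fold change was 0.94 (adjusted p = 0.0248, SE 0.246); without batch VII, whose 2 h and ethanol libraries stand apart, the call was kept, and without batch I, II, V or VIII it was lost (up to 0.0871). Against ethanol, ugt-44 was called only with the batch in the model. At 1 h it was lower (log2 fold change -0.59, adjusted p = 2.71e-05, against -0.65 and 0.102 without the batch). At 2 h it was higher (0.32, adjusted p = 0.003, against 0.30 and 0.346 without the batch). For ugt-47 the lowest, median and highest level were 122, 137 and 151 CPM after 2 h, 106, 112 and 132 CPM after 1 h and 93.0, 101 and 116 CPM with ethanol. Its 2 h libraries were all above the ethanol libraries. The log2 fold change of ugt-47 was 0.40 (adjusted p = 0.000123, SE 0.0669) between 2 h and ethanol and 0.23 (adjusted p = 0.0423, SE 0.0666) between 2 h and 1 h, and the second call was lost without any 1 of batches I, II, V, VII and VIII (up to 0.152).

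Several other members passed only with the batch in the model. At 1 h these included ugt-59 (log2 fold change 0.76, adjusted p = 0.0764 without and 0.0291 with the batch), ugt-65 (0.47, 0.224 and 0.0295) and ugt-42 (0.43, 0.0744 and 0.0208). At 2 h they included ugt-3 (0.48, 0.077 and 0.0308). Between the times they included ugt-43 (0.39, 0.355 and 0.036) and ugt-32 (0.35, 0.274 and 0.0332). These 6, named for the size of their changes, had mean levels under 4 CPM in each group, but abundant members also passed only with the batch, among them ugt-62 and, at 2 h, ugt-26 (79.7 CPM after 2 h and 69.3 CPM with ethanol) and ugt-29 (40.9 and 33.9 CPM). The filter level was reached for ugt-59 in 4 libraries after 2 h, 4 after 1 h and 1 with ethanol. That gene was thus tested because of its auxin libraries.

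Of the 66 genes, 41 lie on chromosome V, 12 on IV, 5 on I, 4 on X, 3 on III and 1 on II. Taking genes within 10000 bases of each other together, 36 fall into 11 groups of neighbours and 30 stand alone. Among the 30 tested members that stand in groups, 17 rose at 2 h and 11 at 1 h; among the 30 tested members that stand alone, 10 rose at 2 h and 9 at 1 h. The median log2 fold change was 0.456 in groups and 0.272 alone at 2 h, and 0.245 and 0.166 at 1 h. These are counts without a test of their difference. On chromosome V, 20 of 36 tested members were called higher at 2 h, where 17.5% of all genes of that chromosome were, and 14 of 36 at 1 h, where 5.21% were.

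Neighbours did not always move together. In the group of 4 on chromosome I (4721131 to 4735276), ugt-25 rose and ugt-28, the next gene along, fell at 2 h, while ugt-26 did not pass (log2 fold change 0.21, adjusted p = 0.37). In the group of 4 on chromosome V from 12790676 to 12800271, ugt-5 and ugt-6 rose at 2 h, and ugt-4, which lies between them, did not pass (-0.06, adjusted p = 0.737). How reads that fit several similar members were counted is not given in the sources used here, so values of close copies are less certain than their errors show.

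**Figure D3:**
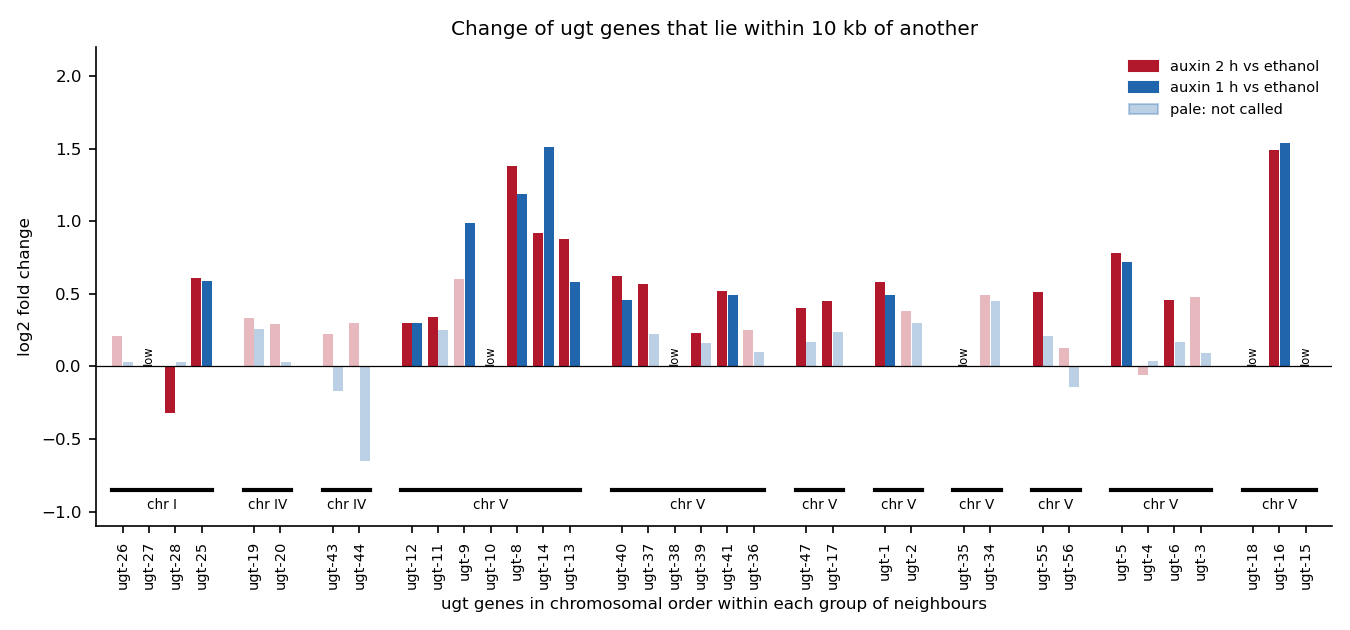
Log2 fold change against ethanol (vertical axis) of ugt genes that lie within 10 kb of another, in chromosomal order within each of the 11 groups, whose chromosome stands below them; red is auxin 2 h, blue is auxin 1 h, pale bars did not pass an adjusted p of 0.05, and "low" marks members under the filter. The group of 7 on chromosome V holds 5 solid bars at each time, and in the first group ugt-28 (-0.32 at 2 h) stands beside ugt-25 (0.61).

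Because MOG-7 is a splicing factor, the intron reads of the family were also compared. They made up 15.9 ± 1.86 reads per 1000 ugt gene reads after 2 h of auxin (SD, n = 6; 13.2 to 18.7), 13.5 ± 1.43 after 1 h (11.5 to 15.5) and 13.8 ± 1.67 with ethanol (11.1 to 15.8), so that the 3 ranges overlapped. Over all genes, with every interval counted, intron reads per 1000 gene reads were 34.2 ± 2.44 after 2 h, 28.1 ± 2.04 after 1 h and 10.4 ± 0.263 with ethanol. The mean ugt value on auxin was 1.16 times that on ethanol at 2 h (0.993 to 1.37 within batches) and 0.98 times at 1 h (0.877 to 1.09). For all genes these ratios were 3.28 (2.99 to 3.48) and 2.69 (2.49 to 2.93), and in no batch did the ugt ratio reach the range of all genes. The ugt value was also above that of 1 h at 2 h, in all 6 batches. The ratio of the group means was 1.18 (1.07 to 1.33 within batches), against 1.22 (1.17 to 1.27) for all genes. Of the members, 7 have only intervals shared with other genes, so they count among the gene reads but not among the intron reads. With those intervals the ugt ratio to ethanol was 1.16 at 2 h (1.02 to 1.34 within batches) and 1.02 at 1 h (0.929 to 1.16). The strand setting of the intron counts is not given in the sources used here.

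Few single ugt introns could be tested. Of the 355 intervals, 56 had no read in any library, 254 averaged less than 1 read, and 11, from 6 genes, passed the filter (3.1%, against 14.3% of all intervals). At 2 h, 6 of the 11 were higher and 0 lower, where 85.1% of all introns tested were higher and 1.37% lower; without batch II or VII the count dropped to as few as 3. At 1 h, 3 were higher and 0 lower, where 83.2% of all introns were higher and 0.927% lower. Between 2 h and 1 h, 2 were higher and 0 lower, where 30.2% of all introns were higher and 1.08% lower. By edgeR none of the 11 was lower at an unadjusted p under 0.05 in any comparison. Their median log2 fold change was 0.371 at 2 h and 0.156 at 1 h, against 3.33 and 2.93 over all introns tested. Of the 11, 7 reached the level of the filter in fewer than 6 ethanol libraries, so the counts called are a description only.

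The largest of these changes was in the fifth of 7 introns of ugt-13 (chromosome V, 4910589 to 4910637, 49 bases). It had 0.423, 0.554 and 1.03 CPM (lowest, median and highest) after 2 h, 0.235, 0.533 and 0.768 CPM after 1 h and 0.194, 0.243 and 0.404 CPM with ethanol. The 2 h libraries were all above the ethanol libraries. The log2 fold change was 1.12 (adjusted p = 0.000551, SE 0.301) at 2 h and 0.84 (adjusted p = 0.01, SE 0.307) at 1 h. The fourth of 9 introns of ugt-41 (7162547 to 7162591) had 1.53, 1.74 and 1.86 CPM after 2 h, 1.30, 1.45 and 1.76 CPM after 1 h and 0.661, 0.889 and 1.27 CPM with ethanol, with both auxin groups above ethanol. Its log2 fold changes were 0.86 (adjusted p = 1.19e-05, SE 0.177) and 0.68 (adjusted p = 0.000434, SE 0.178). The ugt-13 intron reached the filter level of 0.439 CPM in 5 libraries after 2 h, 4 after 1 h and 0 with ethanol, so it was tested only because of the auxin groups. Without a filter its adjusted p was 0.000788 at 2 h and 0.0227 at 1 h. The 1 h call of the ugt-13 intron was lost without batch V (adjusted p = 0.0737).

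In both genes the mRNA rose as well. Relative to the host gene, the ugt-13 intron changed by 0.28 (adjusted p = 0.394) at 2 h and 0.26 (adjusted p = 0.444) at 1 h on the log2 scale, and the ugt-41 intron by 0.36 (adjusted p = 0.0581) and 0.18 (adjusted p = 0.354). Relative to their host genes 85% of all introns were higher at 2 h and 84.1% at 1 h. Of the 11 introns, only the second of 6 introns of ugt-17 (10104418 to 10104469) was higher relative to its host gene, at 2 h (0.45, adjusted p = 0.0332). The fifth and the sixth intron of ugt-17 were lower relative to it at 1 h (-0.49, adjusted p = 0.0229, and -0.62, adjusted p = 0.0247).

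The reads of that second ugt-17 intron were 1.43, 1.56 and 2.11 CPM (lowest, median and highest) after 2 h, 0.548, 1.24 and 2.21 CPM after 1 h and 0.321, 0.933 and 1.16 CPM with ethanol. The mRNA of ugt-17 was 28.9, 38.7 and 48.6 CPM after 2 h, 26.0, 33.5 and 41.6 CPM after 1 h and 20.5, 28.2 and 36.0 CPM with ethanol, a log2 fold change of 0.45 (adjusted p = 0.0122, SE 0.132) at 2 h and 0.24 (adjusted p = 0.28) at 1 h. The groups overlapped for the mRNA, and all 2 h libraries of the intron were above the ethanol libraries. This intron had a log2 fold change of 0.90 at 2 h (SE 0.225, adjusted p = 0.000247) and 0.56 at 1 h (SE 0.231, adjusted p = 0.0233), where the call was lost without batch VII (0.159).

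The other 3 calls at 2 h were smaller or less steady. The 2nd of 4 ugt-47 introns (10097852 to 10098119) changed by 0.68 (adjusted p = 0.0255, lost without batch II, V, VII or VIII), the 3rd (10097464 to 10097520) by 0.37 (0.0302, lost without II, VII or X), and the 3rd ugt-17 intron (10104178 to 10104327) by 0.70 (0.0331, lost without II, VII or VIII), on the log2 scale. Their highest adjusted p without 1 batch was 0.131, 0.176 and 0.161. The 3rd ugt-17 intron reached the filter level in 4 libraries after 2 h, 2 after 1 h and 1 with ethanol. It was thus tested because of its auxin libraries. Between 2 h and 1 h, the sixth ugt-17 intron (log2 fold change 0.75, SE 0.261, adjusted p = 0.0233) and the second of 4 ugt-47 introns (0.78, SE 0.289, adjusted p = 0.0335) were higher at 2 h. That ugt-47 intron had 0.529, 0.757 and 1.52 CPM after 2 h, 0.192, 0.471 and 1.02 CPM after 1 h and 0.179, 0.592 and 1.05 CPM with ethanol, which overlapped. Both calls between the times were lost without some batches: I, V or VIII for ugt-17 (up to 0.124) and II, V or VII for ugt-47 (up to 0.0946).

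Since most ugt introns held too few reads alone, the intron reads were also summed per gene, a step chosen after the single introns had been seen. Then 16 ugt genes passed the filter among 6613 host genes. Intron reads were higher in 7 of them at 2 h and 6 at 1 h, and lower in 0, where 75.3% and 70.5% of all host genes were higher and 0.575% and 0.59% lower. Of the 16, 10 reached the filter level in fewer than 6 ethanol libraries, so these counts are a description only. Among those called at 1 h, ugt-46 reached that level in 4 libraries after 2 h, 5 after 1 h and 1 with ethanol. Between 2 h and 1 h, edgeR called 0 of the 16 in either direction (30.1% of all host genes higher, 1.22% lower), with 2 higher at an unadjusted p under 0.05.  Relative to the gene's own reads, intron reads were higher in 2 of the 16 at each time, ugt-28 and ugt-58, where 72.6% of all host genes were higher and 0.348% lower at 2 h, and 71.0% higher and 0.56% lower at 1 h; both are described here because of these values. The filter level was reached for ugt-28 in 6 libraries after 2 h, 5 after 1 h and 1 with ethanol, and for ugt-58 in 5, 3 and 0 of them, so both were tested because of their auxin libraries, and their count is a description only. Without a filter both were still called at both times, with a highest adjusted p of 0.0167, and 5 of 57 members were called higher at 2 h and 3 at 1 h. The share of all host genes called without a filter is not given here, so these counts are a description only. In the other 14 the log2 change lay between -0.59 and 0.501 at 2 h, and between -0.676 and 0.484 at 1 h, and none passed. The median over the 16 was 0.101 at 2 h and -0.0559 at 1 h, against 1.90 and 1.63 over all host genes.

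The intron reads of ugt-28 made up 55.4, 63.7 and 88.5 per 1000 gene reads (lowest, median and highest) after 2 h, 24.2, 41.3 and 59.0 after 1 h and 8.85, 12.1 and 39.8 with ethanol. All 2 h libraries were above all ethanol libraries, and in each batch both auxin libraries were above the ethanol library. The log2 change relative to the gene was 1.88 (adjusted p = 1.18e-06, SE 0.314) at 2 h and 1.22 (adjusted p = 0.000899, SE 0.323) at 1 h. The counts behind these values are small, at 11 to 23 reads per library after 2 h, 6 to 21 after 1 h and 3 to 13 with ethanol, over the 5 introns of the gene. Without reference to the gene, its intron reads also rose (log2 fold change 1.56, SE 0.328, adjusted p = 4.24e-05, at 2 h), while its mRNA fell at 2 h as given above. Between 2 h and 1 h the relative change was 0.66 (adjusted p = 0.049, SE 0.268), where 36.1% of all host genes were higher and 1.13% lower; the call was lost without any 1 of batches II, V, VII, VIII and X (up to 0.119) and without the filter (0.0747).

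For ugt-58, on the minus strand of chromosome II (9584384 to 9586784), intron reads made up 3.57, 6.82 and 10.3 per 1000 gene reads after 2 h, 2.53, 4.71 and 6.92 after 1 h and 0, 2.29 and 3.64 with ethanol. The auxin and ethanol ranges overlapped slightly, and in each batch both auxin libraries were above the ethanol library. The log2 change relative to the gene was 1.62 (adjusted p = 0.000121, SE 0.364) at 2 h and 1.06 (adjusted p = 0.0138, SE 0.386) at 1 h, the second being lost without batch VII (adjusted p = 0.0552) or VIII (0.0678). Its 7 introns together held 92 reads in the 6 libraries after 2 h, 66 after 1 h and 24 with ethanol. Unlike ugt-28, its mRNA rose at both times.

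**Figure D4:**
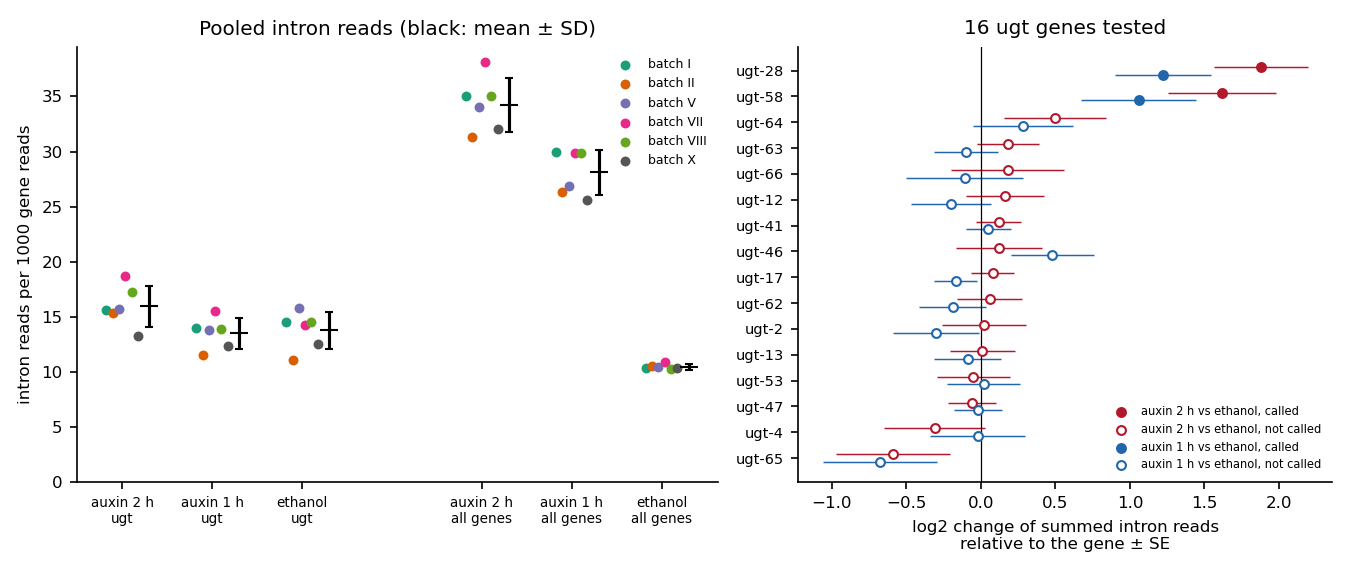
Left, intron reads per 1000 gene reads (vertical axis) pooled over the ugt genes and over all genes, with 1 point per library coloured by batch and the mean ± SD in black, for auxin 2 h, auxin 1 h and ethanol; right, log2 change of summed intron reads relative to the gene (horizontal axis, ± SE) of the 16 ugt genes tested, with red for 2 h, blue for 1 h and filled points called. The ugt values stay between 11.1 and 18.7 in all libraries, and on the right ugt-28 and ugt-58 are the filled points.

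Other families of detoxification genes were counted beside the ugt genes. Of 115 tested genes of the cyp-, gst-, pgp-, mrp- and haf- families, edgeR called 46 higher and 9 lower at 2 h (median log2 fold change 0.279), against 24 higher and 3 lower at 1 h (median 0.135). Over all genes tested the shares were 14.5% higher and 20.1% lower at 2 h, and 3.62% and 6.93% at 1 h, against 40% and 20.9% of these 115 called higher. Of 52 cytochrome P450 genes, 22 were higher and 5 lower at 2 h, against 12 higher and 1 lower at 1 h. At 1 h the changes of cyp-35C1 (log2 fold change 2.10, SE 0.279, adjusted p = 3.41e-05), cyp-35A5 (2.08, SE 0.178, adjusted p = 8.98e-08) and cyp-35A3 (1.88, SE 0.168, adjusted p = 1.89e-07) compare with at most 1.54 for a ugt gene. Of 35 glutathione S-transferase genes, 14 were higher and 2 lower at 2 h, against 6 higher and 1 lower at 1 h; gst-35 rose most (1.83, SE 0.164, adjusted p = 6.76e-08, at 2 h). Among exporters, 5 of 13 pgp- genes and 5 of 8 mrp- genes rose at 2 h, and 4 and 2 at 1 h, while 1 mrp- gene, mrp-8, fell at 2 h (-0.36, adjusted p = 0.00266). Of 7 haf- genes, haf-2 fell at both times (-0.29, adjusted p = 0.000132, at 2 h) and 0 rose, with 3 higher at 2 h and 1 at 1 h at an unadjusted p under 0.05 and 0 by DESeq2.

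Of 7 tested genes that supply or use UDP-sugars, 4 fell at 2 h (20.1% of all genes tested were lower) and 0 rose: sqv-7, a nucleotide sugar transporter (log2 fold change -0.34, SE 0.0746, adjusted p = 0.00159), sqv-4, the UDP-glucose dehydrogenase that makes UDP-glucuronic acid (-0.30, SE 0.0506, adjusted p = 0.000126), sqv-1, which decarboxylates UDP-glucuronic acid (-0.25, SE 0.0647, adjusted p = 0.00537), and gsy-1, glycogen synthase (-0.16, SE 0.0385, adjusted p = 0.00376). The other 3 did not pass at 2 h, with log2 fold changes of 0.21 for D1005.2, 0.03 for gale-1 and -0.11 for rml-1. At 1 h 0 of the 7 were called by edgeR or DESeq2, and 1 was lower at an unadjusted p under 0.05. Of 21 regulators of the xenobiotic response, 5 rose at 2 h, or 23.8% where 14.5% of all genes were higher, and 1, hsf-1, the heat shock factor, fell (-0.20, SE 0.0712, adjusted p = 0.0343). The largest rises were those of the nuclear receptors nhr-176 (0.32, SE 0.113, adjusted p = 0.0323), nhr-114 (0.23, SE 0.0676, adjusted p = 0.0125) and nhr-8 (0.22, SE 0.0609, adjusted p = 0.00759). At 1 h 0 of the 21 were called by edgeR, with 2 higher at an unadjusted p under 0.05 and 1 by DESeq2. The mRNA of skn-1, a factor known to activate phase II genes, changed by 0.07 at 2 h (adjusted p = 0.38) on the log2 scale and did not pass at 1 h (adjusted p = 0.985).

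Markers of tissues were counted too. Of 12 intestine markers, 2 (act-5 and vha-6) rose at 2 h, or 16.7% where 14.5% of all genes tested were higher. At 1 h 0 rose, with 1 higher at an unadjusted p under 0.05 and 1 by DESeq2. Their median log2 fold change was 0.189 at 2 h and 0.0729 at 1 h. With the batch in the model all 12 were called higher at 2 h and 5 at 1 h, where 30.2% and 12.5% of all genes were higher. Their summed level was 50900 to 68900 CPM after 2 h, 47200 to 62700 CPM after 1 h and 42200 to 62200 CPM with ethanol. Of 10 germline markers, 3 fell at 2 h (20.1% of all genes were lower), while 2 fell and 1 rose at 1 h (6.93% of all genes lower and 3.62% higher). With the batch in the model 6 were lower and 0 higher at 2 h (26.5% of all genes lower and 30.2% higher). At 1 h 3 were then lower and 2 higher (18.2% of all genes lower and 12.5% higher). The 10 germline markers had median log2 fold changes of -0.128 and -0.0306 and a summed level of 2910 to 3450, 3290 to 3720 and 3340 to 3920 CPM in the same order of groups. Of 4 markers each, 2 body wall muscle, 0 hypodermis, 2 neuron and 1 sperm marker rose at 2 h and 1 neuron marker fell; at 1 h 0 of these were called, by edgeR or DESeq2, with 1 sperm marker higher at an unadjusted p under 0.05. No marker on any of these lists was at 0 in all libraries. Whether the share of intestinal RNA in the samples has a part in the rise of the ugt genes was not tested.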

How the data were processed

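Per the labels' protocols, RNA was enriched for poly-A tails and made into stranded libraries. The authors deposited whole-number read counts per protein-coding gene and per intron interval, with no normalization. The submitters' processing notes name Trimmomatic, cutadapt, STAR, SAMtools, Picard, featureCounts, limma and edgeR. Versions and genome build are not given in the sources used here; 98.2% of the intervals match an intron of WBcel235 (Ensembl release 115), which gives the coordinates. No column of values lacked a sample (0 such columns).

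Genes were tested with edgeR 4.0.16 in R 4.3.3 (limma 3.58.1; quasi-likelihood test, TMM factors, filterByExpr with a minimum count of 10, group as the only factor, all 18 libraries), which left 13969 genes; introns (15325 tested) and introns summed per gene took the library sizes and factors of the genes. P-values were adjusted by Benjamini-Hochberg over all features tested, and adjusted p under 0.05 is a call. Standard errors (SE) were derived from the fold change and the F statistic. DESeq2 1.42.0 was an alternative. The scripts were tested on simulated data.

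Named were the members called (up to 12 per comparison and direction, by size), the 6 most abundant, those with a called intron, those called in opposite directions and up to 4 per comparison called only with the batch; others named were chosen after their values were seen, as were ugt-28 and ugt-58 for their introns. Members and lists were chosen with earlier results of these data known. Intervals that belong to several genes (47, of 7 members) were left out of the members' introns. Sequences of promoters and proteins are not analysed here.

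The labels give the batch, and same-batch libraries deviated together from their group means across genes (correlations of 0.146 to 0.674 over 18 pairs, and -0.522 to 0.386 over 90 pairs of different batches). The labels do not say that libraries came from separate cultures, so p-values measure the spread between libraries. No libraries of a group agreed within sampling noise (chi-square per degree of freedom of 4.44 to 29.8 over 45 pairs). The biological coefficient of variation was 0.106 for genes and 0.146 for introns. A count of 3 corresponds to 0.0985 to 0.164 CPM and limits low genes; it covers counting error only.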

Additional observations from a re-analysis of the deposited data

Results flagged for a closer look

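In 9 of 54 groups of 6 libraries, over 18 ugt genes, the highest library stood apart from the others by Dixon's criterion, which chance alone meets in about 1 in 20 groups. Of these, 7 were the batch V library. Its level was 24.8 CPM for ugt-8, 53.0 CPM for ugt-13, 3.05 CPM for ugt-14, 23.3 CPM for ugt-25 and 165 CPM for ugt-63 after 1 h of auxin, where the next highest libraries had 12.9, 35.2, 1.66, 16.1 and 121 CPM. After 2 h it was 8.43 CPM for ugt-9 and 23.8 CPM for ugt-25, with next values of 5.04 and 15.9 CPM. The other 2 were the batch VII libraries of ugt-44, at 70.5 CPM after 2 h and 63.9 CPM with ethanol, where the next highest had 36.5 and 29.9 CPM. The 18 genes share the same libraries, so the groups are not independent and their count cannot be set against 1 in 20. The cause of these high values was not tested.

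The change against ethanol differed between 2 h and 1 h for 5 ugt genes by the test of that difference (edgeR, adjusted p over all genes). On the log2 scale the difference was -0.36 for ugt-22 (adjusted p = 0.00226), -0.35 for ugt-28 (0.00924), -0.30 for ugt-64 (0.0182), 0.23 for ugt-47 (0.0423) and 0.94 for ugt-44 (0.0248). It was 0.78 (adjusted p = 0.0335) for the second intron of ugt-47 and 0.75 (adjusted p = 0.0233) for the sixth intron of ugt-17.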

How the results depend on the processing

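With the replicate block (the batch in the model), called ugt genes were 34 at 1 h, 46 at 2 h and 20 between the times, against 20, 28 and 5; summed introns gave 1 call between the times, against 0. Against a 1.5-fold change each gene count was 0, where 48 of all genes were called at 1 h, 161 at 2 h and 4 between the times. DESeq2, library sizes alone, no filter and fits of both groups only kept the 3 gene counts within 1.5 times. Leaving out 1 batch gave 12 to 19 genes at 1 h, 25 to 31 at 2 h and 2 to 5 between the times. For introns it gave 2 to 3, 3 to 6 and 0 to 2, and for summed introns 5 to 7, 6 to 12 and 0 to 1, or relative to the gene 1 to 3, 2 to 3 and 0 to 1. The shares of all features called with 1 batch left out are not given here. Without a filter, 13 of 299 ugt introns were called higher at 1 h and 25 at 2 h, where 28.7% and 31.4% of all introns were higher. Summed introns then gave 14 calls at 2 h and 2 between the times, or relative to the gene 5 and 2. The shares of all host genes called without a filter are not given here. Relative to the host gene, 1 intron was called at 2 h and 0 between the times, and intron 3 of ugt-47 changed to -0.05 at 2 h. TMM factors of the intron counts, which scale the general rise of intron reads away, left all 14 introns then tested lower at 1 h and all 14 lower at 2 h, with 0 between the times. The introns that were higher turned to -0.98 and -1.03 (ugt-13), -1.15 and -1.30 (ugt-41) and -1.29 and -1.27 (intron 2 of ugt-17) at 1 h and 2 h, and to -1.80 (intron 3 of ugt-47), -1.48 (intron 2 of ugt-47) and -1.45 (intron 3 of ugt-17) at 2 h. The cause of other differences was not tested. Summed introns and intervals shared with other genes were added after seeing the data. Few intron reads (342 to 811 per library for all ugt genes) limit the intron results, and low counts limit ugt-33 and the 6 members under the filter.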
